A study of Drosophila melanogaster with 6 samples.

Results

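The 5S ribosomal RNA gene copies were taken as all features of class rRNA in the per-library files whose name starts with 5S_. There were 96 of them among 133537 features with reads in at least 1 of 6 libraries. The libraries are eCLIP of Asterix (Gtsf1), a piRNA pathway protein, in OSS cells, a cultured line of Drosophila ovarian somatic sheath cells. All 6 come from cells in which Asterix is expressed from its own promoter with a C-terminal tag that holds GFP, V5 and 3xFLAG. In eCLIP, UV light links proteins to the RNA they touch, the lysate is treated with RNase, and the RNA held by the protein is sequenced beside RNA of the same lysate. Crosslinked cells received 400 mJ of UV at 254 nm. From these there are 2 input libraries (UV input), taken before the beads, and 2 IP libraries recovered with anti-FLAG beads (UV IP). Cells without UV gave 1 input and 1 IP library. No library of untagged cells was analysed here, so binding to the beads alone was not measured.

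5S rRNA is a short RNA of the large ribosomal subunit. It is transcribed by RNA polymerase III from its own tandem gene array, apart from the nucleolar gene units from which RNA polymerase I makes 18S, 5.8S, 2S and 28S rRNA. Before it joins the ribosome it is held by the ribosomal proteins RpL5 and RpL11 in the 5S RNP. rRNA is a common background in RNA pull-downs, since it is abundant in every lysate. 5S copies of such arrays are near-identical, so a read can match many of them. The deposited estimated counts are fractional, and how a shared read was divided is not given in the sources used here.

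The libraries held 8259354 to 15992638 reads with UV and 2619716 and 4194751 without. Reads of no annotated feature made up 1.98% and 2.22% of UV input, 5.54% and 5.99% of UV IP, 4.07% of the input without UV and 12.9% of the IP without UV. Somatic markers were present, with 436 to 1190 reads of tj in crosslinked libraries and 91 and 204 without UV. The germline markers vas, nos, aub, bam and osk had at most 4 reads each in any library.

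All 96 copies matched a RefSeq gene of the Release 6 assembly. They lie on chromosome 2R between positions 19729562 and 19766278, in an array of 100 units that also holds 4 annotated 5S pseudogenes. Neighbouring units start 359 to 402 bases apart, with a median of 369. The annotated gene is 135 bases long in 94 copies and 134 bases in CR33391 and CR33405. Counts that were identical in all 6 libraries sorted the copies into 29 profile groups, of which 16 held at least 2 copies. Copies whose counts lay within 1% of each other in every library formed 16 families. A family is called here by its first copy in name order. Members of a family often lay apart: of 91 neighbouring pairs of copies, 26 belonged to the same family, and the longest unbroken run was 8 copies.

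5S was a larger part of both IP libraries than of both inputs. The copies together held 567711 and 445481 reads in UV input and 2327007 and 1622061 reads in UV IP. As a share of annotated reads this was 3.62% (Wilson 95% interval 3.61 to 3.63%) and 3.97% (3.96 to 3.98%) in input, against 24.8% (24.7 to 24.8%) and 20.9% (20.9 to 20.9%) in IP. The intervals cover counting error only, and the gap between the IP libraries is far wider than they are. Since a library is a set of shares, more 5S and less of the other RNAs cannot be told apart, nor can fewer cells and less RNA per cell.

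In the fit across 9408 genes, repeats and RNAs, with 5S as 1 item, the log2 ratio of IP over input was 2.54 ± 0.22 (SE, n = 2 against 2; edgeR quasi-likelihood test, adjusted p = 3.64e-08). Among all items, 19.9% were called higher. The 4 possible pairs of an IP with an input gave log2 ratios between 2.34 and 2.77, so both IP libraries lay above both inputs. Still, 165 items, or 1.75%, had a higher log2 ratio than 5S. The labels do not say whether libraries of the same kind came from separate cultures, so the p-values measure only the spread between these libraries, which may be technical.

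The pull-down without UV also held more 5S than its input. 5S made up 0.89% of annotated reads in that input and 3.23% in that IP, which is a 3.63-fold ratio beside the 6.01-fold ratio with UV. On the scale of the fit the log2 ratio was 2.32 without UV and 2.55 with it, a difference of 0.23, while the median difference over all items was 0.10. Of all items, 45.7% had a larger difference than 5S. With scaling by library size alone the difference was 0.73 and the median of all items 0.53. The difference was tested as a UV-by-IP term in 1 edgeR quasi-likelihood fit of all 6 libraries, added after the data were seen, which assumes that the single libraries without UV vary like the UV replicates. It was 0.24 ± 0.31 (SE, n = 2, 2, 1 and 1) for 5S and was not called (adjusted p = 0.70; 0.193 with library size alone), where 5.74% of 9408 items were called higher with UV and 3.79% lower. That miss does not show that the pull-downs with and without UV act alike. UV-treated and untreated libraries differed in the 5S level itself: its share was 4.27-fold higher in UV input than in untreated input and 7.07-fold higher in UV IP than in untreated IP.

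The share of 5S depends on what else is in the library. 5S made up 4.83% ± 0.40 (SD, n = 2) of all rRNA reads in UV input and 30.6% ± 2.9 in UV IP. When the other rRNAs were left out of the total, 5S made up 15.0% and 15.1% of the remaining reads in UV input and 50.8% and 43.8% in UV IP. That ratio was 3.13-fold, and the corresponding ratio without UV was 3.47-fold, so on this scale the pull-down without UV was not below the one with UV.

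**Figure D1:**
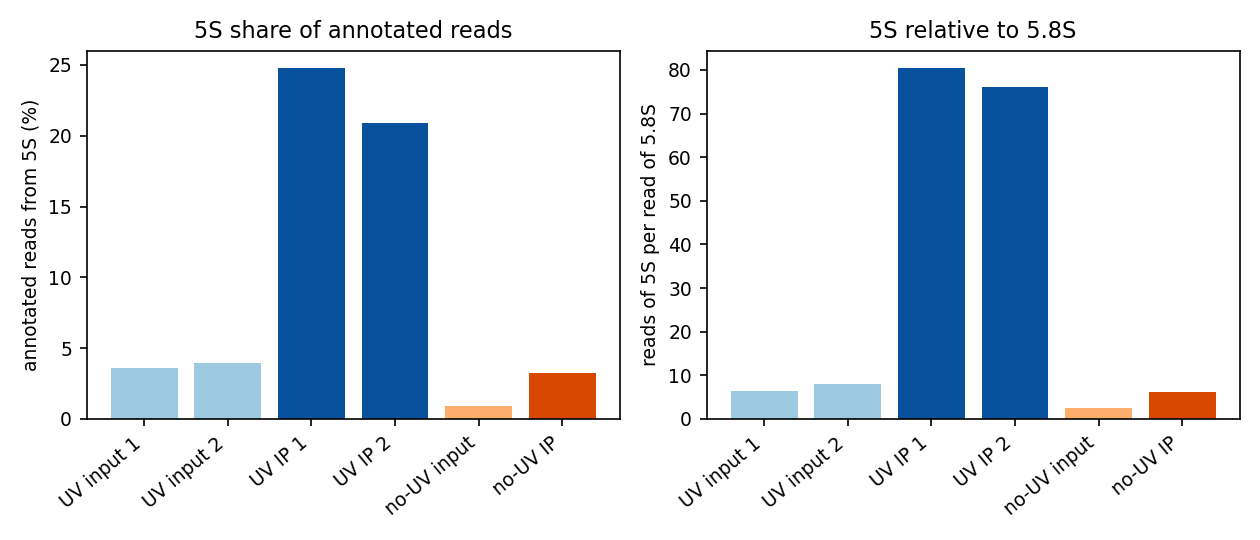
5S in each of the 6 libraries, as a percent of annotated reads (left) and as reads of 5S for every read of 5.8S rRNA (right); each bar is 1 library, blue with UV and orange without, and pale for input. The UV IP libraries stand at 24.8% and 20.9% and at 80.4 and 76.1 reads, and the IP without UV is at 3.23% and 6.22 reads.

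5S parted from 5.8S rRNA, another short RNA of the large subunit, in the UV pull-down, but not from the rarer 2S rRNA. There were 6.35 and 8.09 reads of 5S for each read of 5.8S in UV input, and 80.4 and 76.1 in UV IP. The libraries without UV gave 2.56 in input and 6.22 in IP, both below the UV inputs. The crosslinked log2 difference was 3.45 relative to 5.8S, 3.31 relative to 28S and 2.44 relative to 18S. In each of these both IP libraries lay above both inputs (two-sided exact permutation p = 0.333 for each of the 3 references, the smallest value that 2 against 2 libraries allow). For each read of 2S, a short RNA of the fly large subunit, there were 3334 and 2804 reads of 5S in UV input and 2925 and 3192 in UV IP, so these groups overlap. Without UV there were 2370 in input and 334 in IP.

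Of the 7 other rRNA items, 3 were higher in UV IP, 3 were lower and 1 was not called in the same fit, where 19.9% of all items were called higher and 18.3% lower. The 5.8S log2 ratio was -0.91 ± 0.18 (SE; edgeR adjusted p = 0.00069) and that of 28S was -0.77 ± 0.21 (adjusted p = 0.00608). The item listed as pre-rRNA was at -0.57 ± 0.21 (adjusted p = 0.0355). It held 37.1% and 36.1% of annotated reads in UV input, beside 31.7% and 31.5% for 28S, and its counts were fractional. How far it shares reads with the mature rRNAs was not tested. Its value is thus not that of the precursor alone, nor separate from theirs. 18S, of the small subunit, was not called, at 0.10 ± 0.20. 2S rose by a log2 ratio of 2.56 ± 0.18 (adjusted p = 1.41e-09), but from 10.9 and 14.2 RPM (reads scaled to the library's annotated total) to 84.7 and 65.4, far fewer reads than 5S. Without UV the log2 ratio of 2S was 5.09, resting on 15.1 reads in input and 220 in IP. The mitochondrial rRNAs also rose, by 0.66 for the large and 1.29 for the small one. Without UV all 7 had a log2 ratio above 0 on the TMM scale of the fit, among them 5.8S at 1.04 and 28S at 0.24. The median over all items without UV was -0.13. In RPM, 28S alone fell without UV, from 382894 in input to 329539 in IP, while 5.8S rose from 3475 to 5192.

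The 96 copies fell into 2 sets of equal size by their level in input, split at a mean of 1000 reads after the values were seen. The 48 abundant copies were almost level with each other, at 749 to 753 RPM in UV input 1 and 822 to 826 in UV input 2. The 48 rare copies ranged from 1.63 to 26.0 and from 1.90 to 31.2 RPM. In the IP libraries the abundant copies stood at 4846 to 5120 and 4024 to 4295 RPM, and the rare ones at 6.42 to 763 and 6.94 to 851. The rare copies thus came to lie much farther apart from each other in IP than in input. The abundant set held 99.3% of 5S reads in each UV input, 97.2% and 96.4% in UV IP, 99.1% in the input without UV and 96.2% in the IP without UV.

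**Figure D2:**
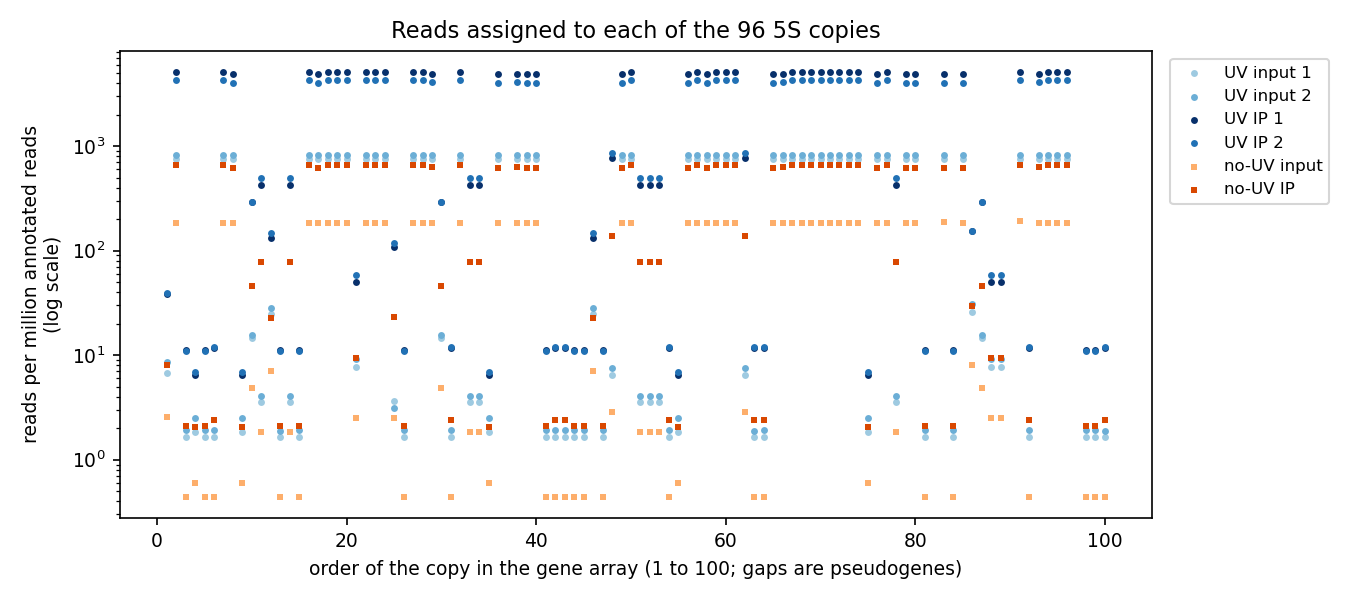
RPM of annotated reads (log scale) assigned to each of the 96 copies, by its order in the array; circles are libraries with UV, squares libraries without, and pale points are inputs. The abundant copies form a level upper row in each library, and among the rare copies below it some rise far more from input to IP than others.

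Taken 1 by 1, all 96 copies passed the minimum of 10 reads on average and were called higher in UV IP, where 22.3% of 17684 features were called higher and 19.8% lower. Their log2 ratios ran from 1.65 to 6.91 with a median of 2.58, beside a median of -0.05 over all features. Each copy had more RPM in both UV IP libraries than in both inputs, which held for 35.9% of all features tested. Each was also higher in the IP without UV than in its input. The share of all features higher in that single pair was not counted, and the rarest copies had 1.79 reads in that input. Copies share reads, so 96 calls are not 96 independent results. With identical copies summed, all 29 profile groups were called higher (largest adjusted p = 7.91e-05; 22.1% of 17617 features were called higher and 19.4% lower).

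The groups did not rise alike. Each was tested against the rest of 5S with edgeR's diffSpliceDGE, and 8 groups with 14 copies rose more than the rest, 1 group of 5 copies rose less, and 20 groups with 77 copies were not called. Over all 14439 features with a partner in their gene or repeat, 4.78% were called above the rest of it and 2.50% below. Copies share reads, so the groups are not independent and these p-values may be too small, which was not tested. The groups were also set by counts in all 6 libraries, IP included. Differences between groups in IP over input thus arise partly by construction, and the calls only describe their size. The 20 groups that were not called had log2 ratios of 2.36 to 2.77, and the 8 groups above the rest had 4.27 to 6.92. The 14 copies belong to 4 families and are spread over the array, from order 10 to order 87. With copies summed by family, where 22.1% of features were called higher and 19.4% lower in UV IP and 4.76% above the rest of their item, these 4 families were again called above the rest. That fit used the same counts, so it is not separate evidence.

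The CR33375 family showed the highest ratio. Its 8 copies lie at orders 11, 14, 33, 34, 51, 52, 53 and 78 of the array and are all 135 bases long. Each copy had 3.55 and 4.09 RPM in UV input and 428 and 492 in UV IP, against 1.86 and 78.3 in input and IP without UV. The family's part of all 5S reads went from 0.0785% and 0.0823% to 1.38% and 1.88%. Its log2 ratio was 6.92 ± 0.21 (SE), and it rose by 4.32 more than the rest of 5S (adjusted p = 3.75e-19). The log2 ratio without UV was 5.74.

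CR33391 and CR33405, the only copies of 134 bases, came next. Each had 6.44 and 7.60 RPM in UV input and 763 and 851 in UV IP, the highest level of any rare copy there. In the libraries without UV they had 2.88 and 137. The log2 ratio was 6.86 ± 0.21 with UV, 4.25 above the rest of 5S (adjusted p = 5.02e-19), and 5.91 without UV. These copies differ from the others in length. The CR33375 family has the common length and a similar log2 ratio. Whether length bears on the rise was not tested. How reads shared between copies were divided is not known here, so the counts of single copies are uncertain.

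CR33428, a single copy at order 25, had 3.62 and 3.15 RPM in UV input and 107 and 118 in UV IP. Its log2 ratio was 5.06 ± 0.17, and 3.50 without UV, where it rested on 10.1 reads in input. The 3 copies of the CR33366 family, at orders 10, 30 and 87, had 14.6 and 15.7 RPM in input and 290 and 291 in IP. Their log2 ratio was 4.27 ± 0.17, and 3.58 without UV. All 4 families thus rose more than the rest of 5S with UV, and without UV their ratios of 3.50 to 5.91 also lay above the 1.96 to 2.67 of the 20 groups that were not called.

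Together the 14 copies held 0.245% and 0.247% of 5S reads in UV input and 2.39% and 3.17% in UV IP. In the libraries without UV they held 0.425% in input and 3.28% in IP. Their part of 5S in the IP without UV was not below that in the IPs with UV.

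The 5 copies of the CR33378 family, at orders 4, 9, 35, 55 and 75, rose least. Each had 1.83 and 2.53 RPM in UV input and 6.42 and 6.94 in IP. Their log2 ratio of 1.64 ± 0.17 was 0.96 on the log2 scale short of the rest of 5S (log2 difference -0.96, adjusted p = 1.80e-05 by family; 2.56e-06 by profile group). Without UV the ratio was 2.06, from 12.1 and 23.4 reads, inside the range of the groups that were not called. In the UV-by-IP edgeR fit none of the 16 families was called, where 2.78% of 17604 features were called higher with UV and 1.06% lower. At an unadjusted p under 0.05 there were 4 families, beside 2918 of the 17604 features. The CR33375 family had the smallest adjusted p, 0.0616, at a log2 difference of 1.18 ± 0.30.

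**Figure D3:**
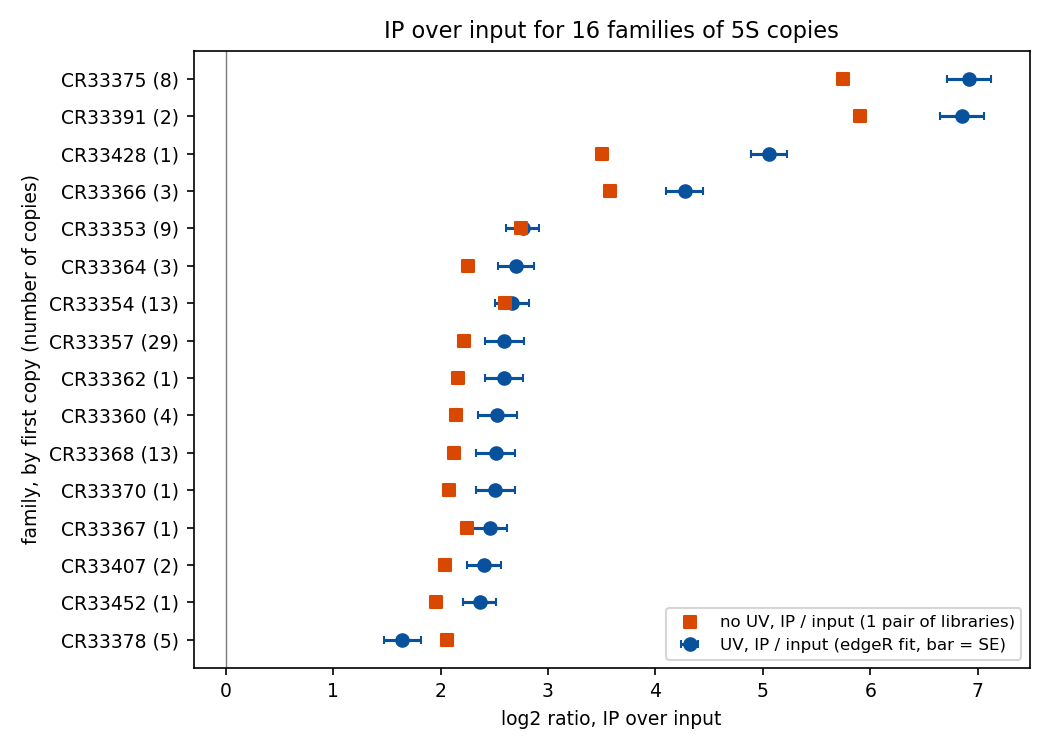
Log2 ratio of IP over input for the 16 families, named by their first copy with the number of copies in brackets; circles with SE bars are the crosslinked libraries (n = 2 against 2) and squares the single pair without UV. The 4 families at the top lie at 4.27 or more with UV and at 3.50 or more without, and CR33378 is lowest with UV at 1.64.

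Among the other rare copies, the largest families were CR33354 with 13 copies and CR33353 with 9. A copy of the first had 1.64 and 1.91 RPM in UV input and 11.2 and 11.1 in IP, and a copy of the second 1.64 and 1.91 in input and 11.8 and 12.0 in IP. Their log2 ratios were 2.67 ± 0.16 and 2.76 ± 0.15, close to the sum of all 5S. CR33452, CR33407 and CR33367 had the lowest ratios of the groups that were not called, at 2.36, 2.40 and 2.46.

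The abundant copies split into 5 families whose levels in UV input were within 1% of each other. Families were set by counts in all 6 libraries, so copies level in UV input part elsewhere by construction. In UV IP the mean was 4701 and 4707 RPM per copy for CR33357 and CR33362, and 4435 and 4441 for CR33368 and CR33370. CR33360 stood between, at 4481. In the input without UV, CR33362 and CR33370 each had 190 RPM per copy, against 184 and 183 for CR33357 and CR33368. The CR33357 family of 29 copies held 60.0% of 5S reads in each UV input and 59.9% and 59.6% in IP, and the CR33368 family of 13 copies held 26.9% in each input and 25.4% and 25.0% in IP. Each copy of the first exceeded a copy of the second by 11.2 and 6.84 reads in UV input, and by 2499 and 2062 reads in UV IP. As a share of the CR33368 level the excess was 0.0954% and 0.0743% in input and 5.49% and 6.60% in IP. Without UV it was 0.307% in input and 6.67% in IP. The IP libraries with and without UV helped to set the families, so these values only describe the size of the gap. Their log2 ratios, 2.59 ± 0.18 and 2.51 ± 0.18, lie within 1 SE of each other.

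The balance between copies differed between the 2 UV IP libraries. The CR33357 family had 5112 RPM per copy in the first UV IP library and 4290 in the second, while the CR33375, CR33391 and CR33428 families were all lower in the first than in the second.

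Among the 4 annotated pseudogenes of the array, CR33356, CR33416 and CR33363 were called higher, at log2 ratios of 0.99, 1.81 and 2.37, in a fit that called 19.9% of all items higher and 18.3% lower. CR33363 had 26.5 and 23.8 RPM in UV input and 155 and 113 in IP. CR33371 had 6 and 4 reads in UV input, 62 and 38 in UV IP, and 0 and 2 without UV. It reached the minimum mean of 10 reads only through the IP libraries, so its log2 ratio of 3.89 is given as a description. The pseudogene counts were whole numbers, except 169.5 for CR33356 and 143.5 for CR33416 in UV input 2. Counts of the gene copies were mostly fractional. How far the pseudogenes share reads with the genes was not tested.

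The authors' deposited table gives 1 ratio for each feature, with no formula stated. In the authors' deposited table the 96 copies had ratios of 3.27 to 141.9 with a median of 6.76, beside a median of 1.36 over 39941 features. Of the 95 ratios above 100 in the authors' deposited table, 10 were 5S copies, those of the CR33375 family and the 2 copies of 134 bases. These values come from the same libraries and are not separate evidence.

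The genes whose products handle 5S were read for their own mRNA. Of 10 listed, 8 were tested, with 2 higher, 1 lower and 5 not called, close to the 19.9% and 18.3% of all items called higher and lower. Their median log2 ratio was -0.09, beside -0.03 over all items. RpL5 exons had 31.1 and 23.9 RPM in UV input and 77.0 and 79.4 in IP, a log2 ratio of 1.46 ± 0.15 (edgeR adjusted p = 2.47e-07). RpL11 exons were at 0.86 ± 0.14 (adjusted p = 1.03e-04). The introns of both went the other way, at -2.45 ± 0.19 for RpL5 and -1.44 ± 0.22 for RpL11, both called lower. The exons of CG32409, whose yeast counterpart Rrs1 helps to load the 5S RNP, were lower at -0.85 ± 0.31 (adjusted p = 0.0357). This rests on 42 and 27 reads in input and 15 and 10 in IP.

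The genes not called were Non3, the counterpart of yeast Rpf2, which works with Rrs1 (log2 ratio -0.13), La, which binds the ends of new polymerase III transcripts (-0.05), the polymerase III initiation factors Brf (0.17; its introns 0.33) and Bdp1 (-0.70), and the polymerase subunit gene RpIII128 (-0.16). Trf, the TBP-related factor of fly polymerase III, stayed below the count minimum, and CG17209 was not analysed here.

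Of the 6 other single RNAs made by polymerase III that were listed, 3 were higher, 1 was lower and 2 were not called, beside 19.9% of all items higher and 18.3% lower. RNase MRP RNA, which takes part in rRNA processing, was at 1.63 ± 0.19 (adjusted p = 1.83e-06). U6atac of the minor spliceosome was at 2.39 ± 0.25 (adjusted p = 3.48e-07), from 26 and 12 reads in input to 77 and 54 in IP, and had 0 and 6 reads without UV. 7SL, the RNA of the signal recognition particle, was at 0.54 ± 0.17 (adjusted p = 0.0172). U6 of the spliceosome was lower at -1.01 ± 0.23 (adjusted p = 0.00194). 7SK, at 0.18, and RNase P RNA, at 0.05, were not called.

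The tRNAs were mostly higher in UV IP, and without UV most lay lower in IP than in input. Of 45 anticodon sums, 44 were higher and 1, tRNA-Gln-CTG at -1.16, was lower, with a median log2 ratio of 2.85. Among all items 19.9% were higher and 18.3% lower, with a median of -0.03. Without UV their median was -1.26, and 10 of 45 were above 0, whereas 5S was at 2.32. In the UV-by-IP fit 44 of 45 anticodons were called higher with UV, and the 5S sum was not called; the anticodons were not tested against 5S.

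**Figure D4:**
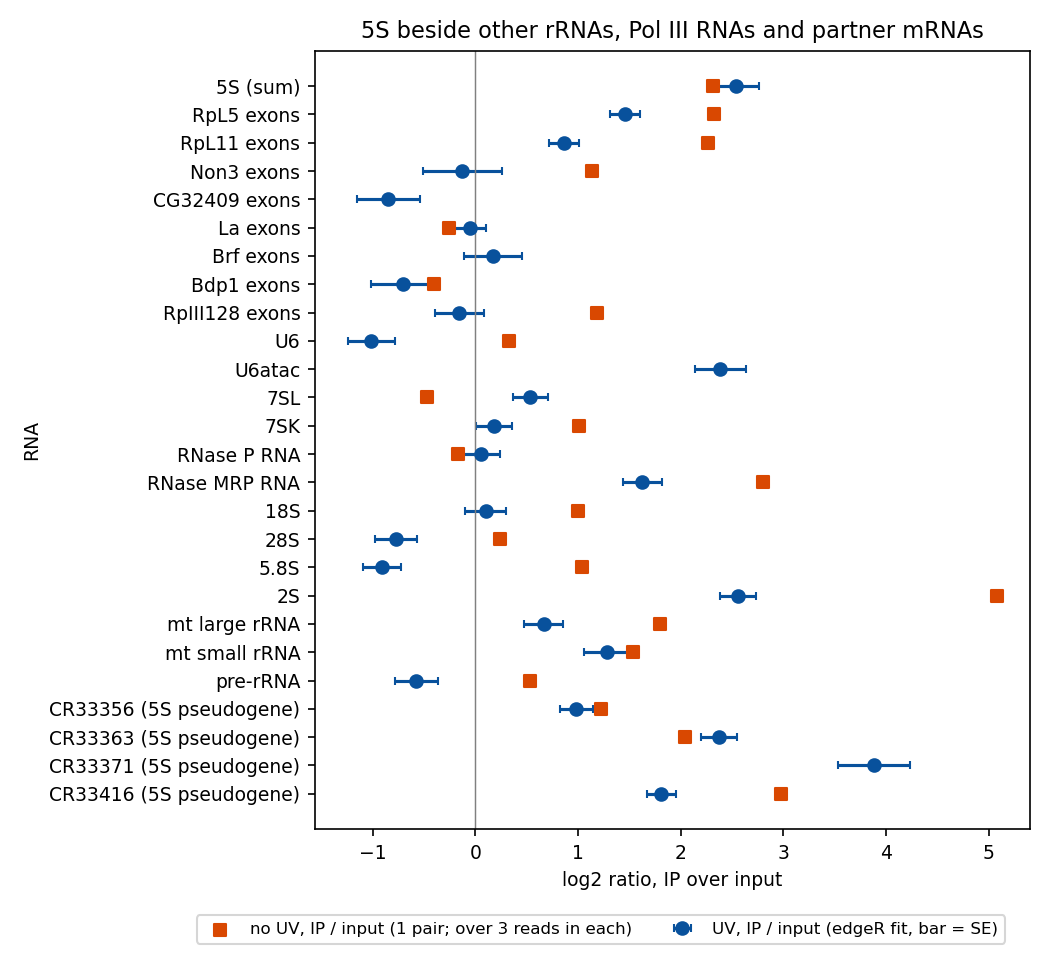
Log2 ratio of IP over input for 5S as 1 item, partner mRNAs, other polymerase III RNAs, other rRNAs and the 5S pseudogenes; circles with SE bars are crosslinked libraries (n = 2 against 2) and squares the single pair without UV, shown where both libraries held over 3 reads. 5S lies at 2.54 with UV and 2.32 without, while 5.8S lies at -0.91 with UV and 1.04 without.

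Over the 6 libraries, the items whose log2 level followed 5S most closely among 1949 with a mean of at least 100 reads were RpS21 exons (Pearson r = 0.997, Spearman rho = 0.943), the pseudogene CR33363 (r = 0.996, rho = 0.943), RpS27 exons (r = 0.993, rho = 0.943), mask introns (r = 0.990, rho = 0.886) and the Jockey element DOC6_DM (r = 0.986, rho = 1.0). Without the 2 libraries farthest from the median 5S level, r stayed between 0.973 and 0.992. The points share their libraries and depth, and the 2 UV IP libraries lie apart from the other 4 in 5S level. The measure takes no account of size: RpS21 had a log2 ratio of 0.59 with UV.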

How the data were processed

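The authors deposited an estimated count and an RPM value for each feature in each of 6 eCLIP libraries. Per the submitters' processing notes, the tools include bcl2fastq 2.19, STAR 2.5.2b and bedtools 2.29.0, with builds dm6 and mm10 listed and no role given. Whether PCR duplicates were removed and how shared reads were divided is not given in the sources used here. The authors also deposited a table of 1 ratio for each feature with no stated formula.

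Estimated counts were rounded and tested with the edgeR 4.0.16 quasi-likelihood test in R 4.3.3 (TMM scaling, at least 10 reads on average over the 4 crosslinked libraries, Benjamini-Hochberg over all rows, threshold 0.05). The reads of no annotated feature were left out of totals. RPM in the text was recomputed from annotated reads only. Levels without UV are log2 CPM with a prior count of 2. Copies counted as identical differed by at most 1e-06 reads. A UV-by-IP term was fitted over all 6 libraries. limma 3.58.1 and DESeq2 1.42.0 were alternatives, and the tests were tested on simulated data.

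The members and lists were chosen with earlier results of these data known. Named copies are those with the highest level, the highest or lowest ratio, or the most copies; every item of the partner, rRNA and polymerase III lists is named, tRNAs as a class. Profile groups gave the counts of groups called. Tests by family gave the adjusted p-values of named families unless a profile group is stated, and families gave most values. Gene positions come from RefSeq Release 6; the files hold none.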

Additional observations from a re-analysis of the deposited data

Results flagged for a closer look

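In 9 items near 5S, all 4 pairs of crosslinked libraries moved 1 way and the single pair without UV the other, on the TMM scale. The difference was tested as the UV-by-IP term of 1 edgeR fit of all 6 libraries, with the single libraries without UV assumed to vary like the replicates; adjusted p-values are over all items. The log2 ratios without UV were 1.04 for 5.8S (-0.91 with UV; adjusted p of the difference 0.000449), 0.24 for 28S (-0.77; 0.0367) and 0.53 for pre-rRNA (-0.57; 0.0224). U6 was at 0.33 without UV and -1.01 with it (0.0490), and 7SL at -0.48 and 0.54 (0.0417). The median over the tRNA anticodons was -1.26 without UV and 2.85 with it, and 44 of 45 anticodons were called. RpL5 introns were at 0.30 and -2.45 (0.000247), and RpL11 introns at 0.81 and -1.44 (0.00444). RpIII128 exons were at 1.18 without UV, on 6.33 and 6 reads, and -0.16 with it, and the difference was not called (0.325). With scaling by library size alone the differences of 28S, pre-rRNA and U6 were no longer called (adjusted p = 0.361, 0.273 and 0.224), and 5.8S, 7SL, both introns and 44 anticodons were called. The opposite direction without UV itself depended on the scaling for some items. By library size alone the log2 ratio of 5S without UV was 1.86, against 2.32 by TMM. The TMM ratios of 28S, U6 and RpL5 introns without UV are smaller than that gap, so by library size they do not stay above 0. In RPM, 28S fell without UV, from 382894 in input to 329539 in IP. The sum of 5S and each of its 29 profile groups had a log2 ratio above 0 both with and without UV. The median over all items was -0.03 with UV and -0.13 without.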

How the results depend on the processing

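Of 135 values recomputed under alternatives, 128 kept their direction and their side of the threshold, or moved by less than the spread between replicates. The log2 ratio of 5S was 2.54 with the replicate block and 2.43 to 2.68 when 1 crosslinked library was left out (adjusted p at most 2.33e-06), and 2.37 with no filter on low counts. Inputs and IPs of the same replicate number showed no shared deviation (correlation of deviations 0.04). With 2 replicates this cannot show that they were unpaired. The block changed no call on 5S. All 96 copies were called higher with each library left out in turn. With a minimum mean of 100 reads, 69 copies passed and all of those were called. That mean includes the IP libraries. Copies of the CR33375 family, at 55.7 and 45.9 reads each in UV input, passed only through them. Grouping copies within 1% turned 29 groups into 16, all higher, and the 8 groups above the rest of 5S into 4, by construction. The 6.01-fold share ratio was 5.50 to 6.52 without 1 library and 3.13 with other rRNAs out of the total. The difference between the log2 ratios with and without UV was 0.73 with scaling by library size alone, and 0.11 to 0.36 without 1 library. The log2 difference relative to 5.8S was 3.27 to 3.62 without 1 library. The partner and polymerase III items called lower, 3 of 59, became 0 by DESeq2 (1 at an unadjusted p under 0.05), 1 with the minimum of 100 reads, and 1 to 3 without 1 library (1 without crosslinked input 1); the cause was not tested. The items called higher were 49, beside 19.9% of all items called higher and 18.3% lower. Of these, 44 were tRNA anticodons, 3 other polymerase III RNAs and 2 partner genes. Without 1 library the items called higher were 47 to 49. Depth limits the rare copies without UV, which had as few as 1.79 reads each in that input. The UV-by-IP term was added after the data were seen, gave 0.24 for 5S (adjusted p = 0.70), and rests on the spread of the 2 libraries in each crosslinked group.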
